A study of Mus musculus with 10 samples.

Results

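The nuclei described here were picked out of the hippocampal libraries by 7 genes. They held at least 2 UMIs (unique molecular identifiers, each standing for 1 captured RNA molecule) from at least 2 of Glra1, Tfap2b, Rmst, Zfhx3, Slc17a6, Otx2 and Gata3, and no UMI of Prkcd or Lef1. This gate took 221 of 5658 hippocampal nuclei, out of 11624 nuclei in the series, and they are called the gated nuclei. The gate was drawn up on these same data, so its own 9 genes are given as a description and support nothing.

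The method was DroNc-seq, which pairs a nucleus with a barcoded bead in a droplet and counts its RNA, and the source was frozen archived brain of C57BL/6 mice. The series design names 4 mice and 2 regions, hippocampus and prefrontal cortex, with no treatment or genotype contrast. Hippocampal library titles carry the numbers 0 to 3, number 0 has libraries 0a and 0b, and libraries of a number were summed to a unit, which gave 4 units. Which mouse a number stands for is not in the labels, so p-values reflect how far units vary, which may be no more than technical. The gated nuclei were compared with the other 5437 hippocampal nuclei, and then with smaller sets of them.

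Glra1 encodes a subunit of the glycine receptor, a chloride channel used mostly in brainstem and spinal cord. Tfap2b encodes the AP-2 beta transcription factor and Slc17a6 the vesicular glutamate transporter VGLUT2, which loads glutamate in most excitatory neurons below the cortex. Otx2 and Gata3 are transcription factors of midbrain development, and Gata3 acts in GABA neurons of the midbrain and hindbrain. Rmst is a long noncoding RNA, and Zfhx3 a zinc finger homeobox factor of many brainstem and hypothalamic neurons. Neurons of the midbrain come in GABA-releasing and glutamate-releasing kinds, told apart by Gad1 and Gad2, which make GABA, and by Slc17a6. The hippocampus proper is built from glutamate neurons that use another transporter, Slc17a7, and from interneurons that migrate in from the ventral forebrain.

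The gate took 35, 57, 63 and 66 nuclei in units 0, 1, 2 and 3. These were 1.47% of nuclei in unit 0 (95% exact binomial interval 1.03% to 2.04%), 5.40% in unit 1 (4.12% to 6.94%), 5.93% in unit 2 (4.59% to 7.53%) and 5.66% in unit 3 (4.401% to 7.14%). Unit 0 lay below the other units, which were close to each other. The mean was 4.62% ± 2.11 (SD, n = 4), and 5.66% ± 0.265 without unit 0. With every nucleus thinned to 500 UMIs, which left out 692, 51, 112 and 42 nuclei of fewer UMIs in units 0 to 3, the shares were 0.416%, 1.49%, 1.89% and 1.87%. The same gate took 23 of 5966 cortical nuclei, or 0.386%, and 1 of 5960 after thinning, with median UMIs of 1329 in cortex and 1006 in hippocampus.

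Unit 0 also stood apart in depth and content. Its library 0b had a median of 643 UMIs per nucleus against 998 to 1172 in the other 4 hippocampal libraries, whose totals with 0b ran from 1443244 to 1972542 UMIs. Of the 105 nuclei that met the count gate and held Prkcd or Lef1, 74 came from unit 0. Unit 0 also gave 693 of 717 nuclei in an unnamed cluster with a median of 453 UMIs, and all 218 of a pyramidal-like cluster. It gave 135 of 176 nuclei in the thalamus or habenula-like cluster. These clusters held 2, 1 and 6 gated nuclei, and their part in the share of unit 0 was not tested. All 25 nuclei of a choroid plexus cluster came from unit 0 too. The gate took 3 of those 25, and whether a gate gene favours choroid plexus nuclei was not tested. Ependymal and choroid plexus markers made up 0.441% of UMIs in gated nuclei of unit 0 and 0.0187% to 0.0193% in those of units 1 to 3, with all 12 markers seen. Among the other nuclei these markers took 0.121% of UMIs in unit 0 and 0.0078% to 0.0125% in units 1 to 3, and their part in the results was not tested. Libraries 2 and 3 shared 1 barcode, no other pair shared any, and no gated nucleus carried a shared one.

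Gated nuclei were deeper than the rest. Their median UMIs were 1973, 1895, 1700 and 1766 in units 0 to 3, against 769, 1081, 974 and 1138 in all other nuclei. All 4 units differed in the same direction, by a mean of 843 ± 252 UMIs (SD, n = 4), the largest mean among the 16 sign flips of an exact two-sided permutation, which with 4 units cannot reach a p under 0.05. A gate that asks for 2 UMIs takes deep nuclei more often, and this was held in view by an alternative that kept the other nuclei within the UMI range of the gated ones.

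Among the gate's own genes, Rmst was present in 65.2% of gated nuclei and 5.00% of all others, Slc17a6 in 54.8% and 5.26%, and Zfhx3 in 49.8% and 4.58%. The other gate genes were sparser. Glra1 was present in 23.5% of gated nuclei and 0.736% of others, Tfap2b in 19.0% and 0.331%, Otx2 in 10.4% and 0.589%, and Gata3 in 9.95% and 0.276%. In an oligodendrocyte-like cluster of 300 nuclei with a median of 633 UMIs, which should lack all 7, the share was at most 1.33%. The commonest pairs were Rmst with Slc17a6 (43 nuclei), Rmst with Zfhx3 (26) and Zfhx3 with Slc17a6 (23), so most gated nuclei entered without a UMI of Glra1 or Tfap2b.

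Each gate gene was then left out in turn and looked for in nuclei chosen by the other 6. Summed Rmst counts per 1000000 UMIs (CPM) were 178, 346, 296 and 354 in units 0 to 3 of the nuclei so chosen, against 37.3, 83.5, 83.8 and 77.5 in all others. The ranges did not overlap. Glra1 was present in 13.3% of chosen nuclei and 1.21% of others, and Tfap2b in 11.4% and 0.678%. Tfap2b, Otx2 and Gata3 had 41, 7 and 8 UMIs in the chosen nuclei. The 7 genes were chosen together on these data, so these levels are a description with no test and no evidence for the gate.

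Clusters made without the 9 gate genes placed most gated nuclei together. Cluster 3, with 498 nuclei, held 154 of them, or 69.7%, and they came as 14, 40, 47 and 53 nuclei from units 0 to 3. Gated nuclei made up 30.9% of this cluster. It was led by Gm13112, Syt2, Tac1, Ebf3, Slc32a1, Resp18, Chrm2, Gpr64, Susd2 and Cacna2d2. It stayed unnamed, with 4 of 27 thalamus and habenula markers as its best match. No midbrain or hindbrain class was among those a cluster could be named from, so a midbrain name was not tried. The nuclei are called by their gate. A finer clustering put 49.8% of them in its leading cluster and a coarser one 70.6%.

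The gated nuclei outside cluster 3 were scattered. There were 21 in an oligodendrocyte-like cluster, 13 in astrocyte-like clusters, 7 in ependymal or choroid plexus-like, 6 in thalamus or habenula-like, 6 in pyramidal-like, 5 in microglia-like and 2 in interneuron-like clusters. None of the 1281 dentate granule-like nuclei was gated, which allows a share of up to 0.234%. That oligodendrocyte-like cluster had 57.5% of its nuclei called as doublets by comparison with simulated pairs. Doublet calls covered 21.7% of gated nuclei and 14.8% of all hippocampal nuclei. They were kept in the results and removed in an alternative.

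**Figure D1:**
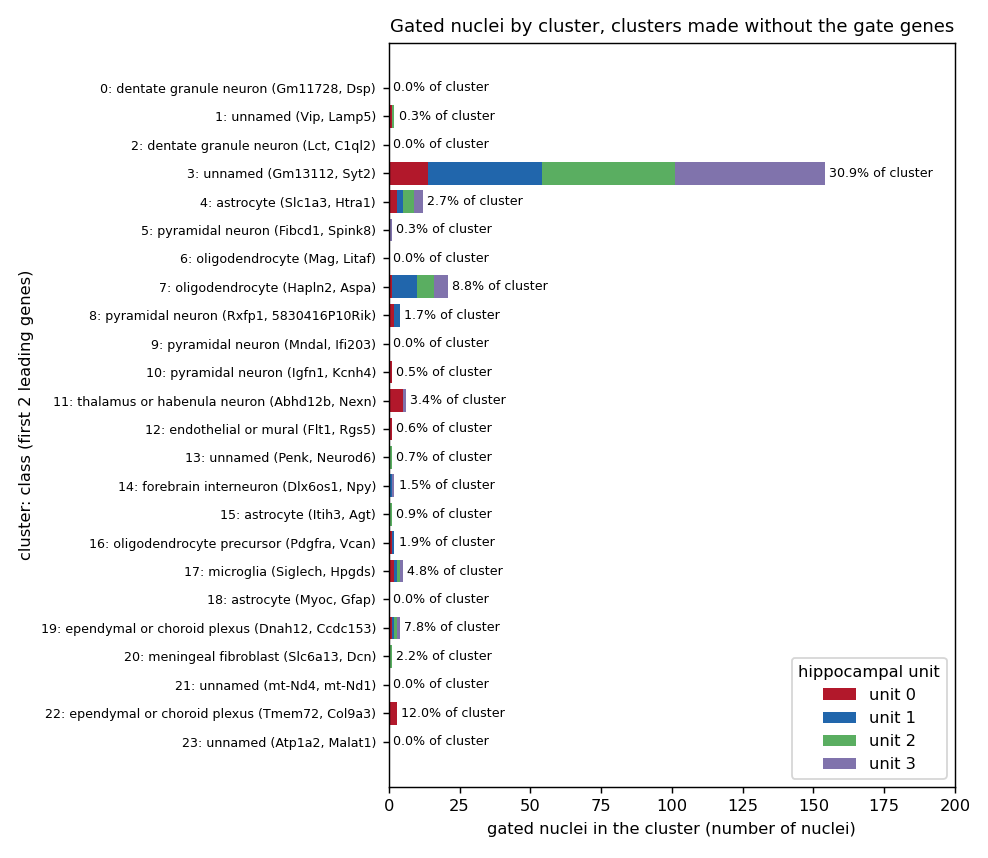
Number of gated nuclei in each of 24 clusters made without the gate genes, stacked by unit, with the share of each cluster that was gated. Cluster 3 holds 154 of the 221 gated nuclei, and the dentate granule clusters 0 and 2 hold none.

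Nuclei at the edge of the gate were placed as follows. Of 74 gated nuclei with exactly 2 UMIs from 2 genes, 62.2% were in cluster 3, and of 62 with 3 or more genes, 85.5%. Of 423 nuclei just outside, with 1 UMI of the gate genes, 23.2% were in cluster 3, and of 118 with several UMIs of 1 gene, 29.7%.

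Among the genes higher in gated nuclei were the transcription factors Ebf3, Foxp2 and Casz1, the release sensor Syt2 and the receptors Glra3 and Chrm2, and among the lower were genes of hippocampal principal cells such as Camk2a and Neurod6. Of 10052 genes tested on UMIs summed per unit, 287 (2.86%) were higher in gated nuclei and 439 (4.37%) lower at an adjusted p under 0.05. The test was edgeR's quasi-likelihood test with a block for the unit and Benjamini-Hochberg adjustment. Errors of fold changes are SE. The median log2 fold change of all genes was -0.03. The largest rises among the genes named were in Glra3, Susd2, Ebf3, Ankrd55, Pld5, Foxp2, Casz1, Syt2, Tcerg1l, Steap2, Adamts16, Chrm2, Tac1, Tmem91 and Zfp618. A further fit took the 67 gated nuclei outside cluster 3 and left cluster 3 out of the other nuclei too. In this smaller set, where fewer calls can be made, 23 genes were higher and 85 lower. Syt2, Steap2, Chrm2, Tmem91, Tcf7l2, Htr2c and Cacna2d2 kept their higher call. Among the calls lost there, Casz1 had a log2 fold change of 2.04, against 2.43 for all gated nuclei, and Gad2 of 0.20, against 1.17. These values differ in their other nuclei as well, since cluster 3 stayed among them in the main fit.

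Several transcription factor genes were among the largest rises. Ebf3, an early B-cell factor family member that acts in developing neurons, lies on chromosome 7 (mm10 chr7:137193673-137314445, minus strand). It had 33.0, 34.5, 70.4 and 44.8 CPM in gated nuclei of units 0 to 3, against 1.07, 8.98, 6.84 and 9.63 CPM in all other nuclei. Every gated value lay above every other value, with a log2 fold change of 2.74 ± 0.50 (edgeR adjusted p = 0.00019). Its relative Ebf1 (chr11:44617317-45008091) had 77.1, 62.2, 70.4 and 127 CPM in gated nuclei, against 35, 17.9, 22.8 and 34.9 CPM in all others. The ranges were apart, with a log2 fold change of 1.60 ± 0.32 (edgeR adjusted p = 0.00061). Tcf7l2, the Wnt pathway factor of thalamus and midbrain (chr19:55741820-55933654), had 407, 207, 274 and 127 CPM in gated nuclei, against 103, 64.9, 49.4 and 68.0 CPM in all others. It also separated fully, at 1.77 ± 0.21 (edgeR adjusted p = 1.88e-07), but in nuclei with at least 3 gate genes the log2 fold change was 0.47 and was not called (edgeR adjusted p = 0.761).

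Foxp2, a forkhead factor of several projection neuron types, had 99.1, 96.7, 78.2 and 67.3 CPM in gated nuclei, against 27.2, 8.98, 12.9 and 13.8 CPM in all others, a log2 fold change of 2.46 ± 0.36 (edgeR adjusted p = 6.76e-06). The zinc finger factor Casz1 rose by a log2 fold change of 2.43 ± 0.54 (edgeR adjusted p = 0.00238), which without unit 2 was 2.20 with an adjusted p of 0.0548. Of the 50 midbrain and hindbrain transcription factor genes listed, 49 were in the table and 35 had a UMI in gated nuclei. Only 6 passed the count filter, of which Ebf1, Ebf3 and Tcf7l2 rose and none fell, with a median log2 fold change of 0.78. A sparse gene passes this filter when it is high in 1 set, as Ebf3 was in gated nuclei, so counts within sparse lists are shaped by it. Summed over the list, gated nuclei held 346 UMIs and all others 2712, so that 11.3% of the list's UMIs were in gated nuclei against 5.74% of the UMIs of all genes. Tcf7l2, which is also on the thalamus and habenula list, gave 119 of the 346. Gata2, a partner of Gata3 in midbrain GABA neurons, had 0 UMIs in gated nuclei and 135 in all others.

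Forebrain factors ran the other way: 8 of 20 tested fell and none rose, with a median log2 fold change of -1.25. Neurod6, a factor of pyramidal neurons, had 66.1, 6.91, 15.6 and 37.4 CPM in gated nuclei, against 96.7, 129, 129 and 149 CPM in all others. It fell by 2.18 ± 0.36 on the log2 scale (edgeR adjusted p = 3.17e-05). Bcl11b fell by 1.95, Prox1, the granule cell factor, by 1.78, Neurod2 by 1.66 and Mef2c by 1.63 on the log2 scale. Zbtb20, which specifies hippocampal neurons, was 1443, 739, 634 and 792 CPM in gated nuclei of units 0 to 3, against 1477, 2634, 2473 and 2429 CPM in all others. Unit 0 showed almost no difference while units 1 to 3 were apart, and the fitted log2 fold change was -1.38 ± 0.17 (edgeR adjusted p = 2.52e-07).

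Thalamic and habenular genes split. Of 15 tested, 5 rose, among them Zfhx4 (1.07 ± 0.22) and Lhx9 (1.30 ± 0.31), both homeobox factors, and 2 fell, Ptpn3 and Plekhg1. The calls of Zfhx4 and Lhx9 ended without unit 2 (0.87, edgeR adjusted p = 0.0696) and without unit 1 (1.13, edgeR adjusted p = 0.119). Ptpn3 had 77.1, 13.8, 15.6 and 22.4 CPM in gated nuclei, against 106, 69.7, 63.9 and 54.8 CPM in all others, and its call was lost without unit 1, 2 or 3, without the block (edgeR adjusted p = 0.0574), in DESeq2 (adjusted p = 0.1247) and without doublet calls (-0.88, edgeR adjusted p = 0.189).

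Promoters are shown for 3 of the genes highest in gated nuclei, because their windows hold the palindrome GCCNNNGGC bound by AP-2 factors, the family of the gate gene Tfap2b. The sequences are RefSeq GRCm38.p6, the 250 bases before the annotated start, all minus strand, written in the direction of the gene, with the matches in capitals.
Ebf3, chr7:137314446-137314695: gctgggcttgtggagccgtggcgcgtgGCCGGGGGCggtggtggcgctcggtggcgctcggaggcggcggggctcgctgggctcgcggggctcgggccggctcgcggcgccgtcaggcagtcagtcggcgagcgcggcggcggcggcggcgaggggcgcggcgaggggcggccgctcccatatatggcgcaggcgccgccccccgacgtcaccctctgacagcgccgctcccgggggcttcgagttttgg
Steap2, chr5:5694327-5694576: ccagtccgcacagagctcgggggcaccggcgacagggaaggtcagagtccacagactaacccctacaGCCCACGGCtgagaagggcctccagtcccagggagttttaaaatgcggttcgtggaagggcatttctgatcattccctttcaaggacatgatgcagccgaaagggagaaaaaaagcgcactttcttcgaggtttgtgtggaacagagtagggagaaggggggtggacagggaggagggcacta
Tcerg1l, chr7:138397731-138397980: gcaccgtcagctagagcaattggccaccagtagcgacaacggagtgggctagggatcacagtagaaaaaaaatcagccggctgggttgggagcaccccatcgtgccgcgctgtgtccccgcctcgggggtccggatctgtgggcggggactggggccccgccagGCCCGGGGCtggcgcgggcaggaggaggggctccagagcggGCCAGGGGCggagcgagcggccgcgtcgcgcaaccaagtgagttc
The match in Ebf3 began 223 bases before the start, that in Steap2 183, and those in Tcerg1l 86 and 45 bases before. RefSeq windows were found for 13 of 18 genes named as higher, 18 windows in all, and both strands were searched. The AP-2 letters were in 4 of the 18 windows, against 13.73% of the 32851 promoters of the same length that were searched. The window with matches that is not shown, of Zfp618, holds 5 and is 88.8% G and C. The Ebf3 window is 80.0% G and C, and the other 2 shown are 56.4% and 69.6%. The palindrome known for Ebf factors was in 0 of 18 windows (0.78% of promoters searched). AGATAA, bound by Gata factors, was in 2 of 18, those of Tac1 and Pbxip1 (9.99% of promoters searched). A match is a description of the letters and not a binding site, and none of the windows shown holds either of the other motifs.

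**Figure D2:**
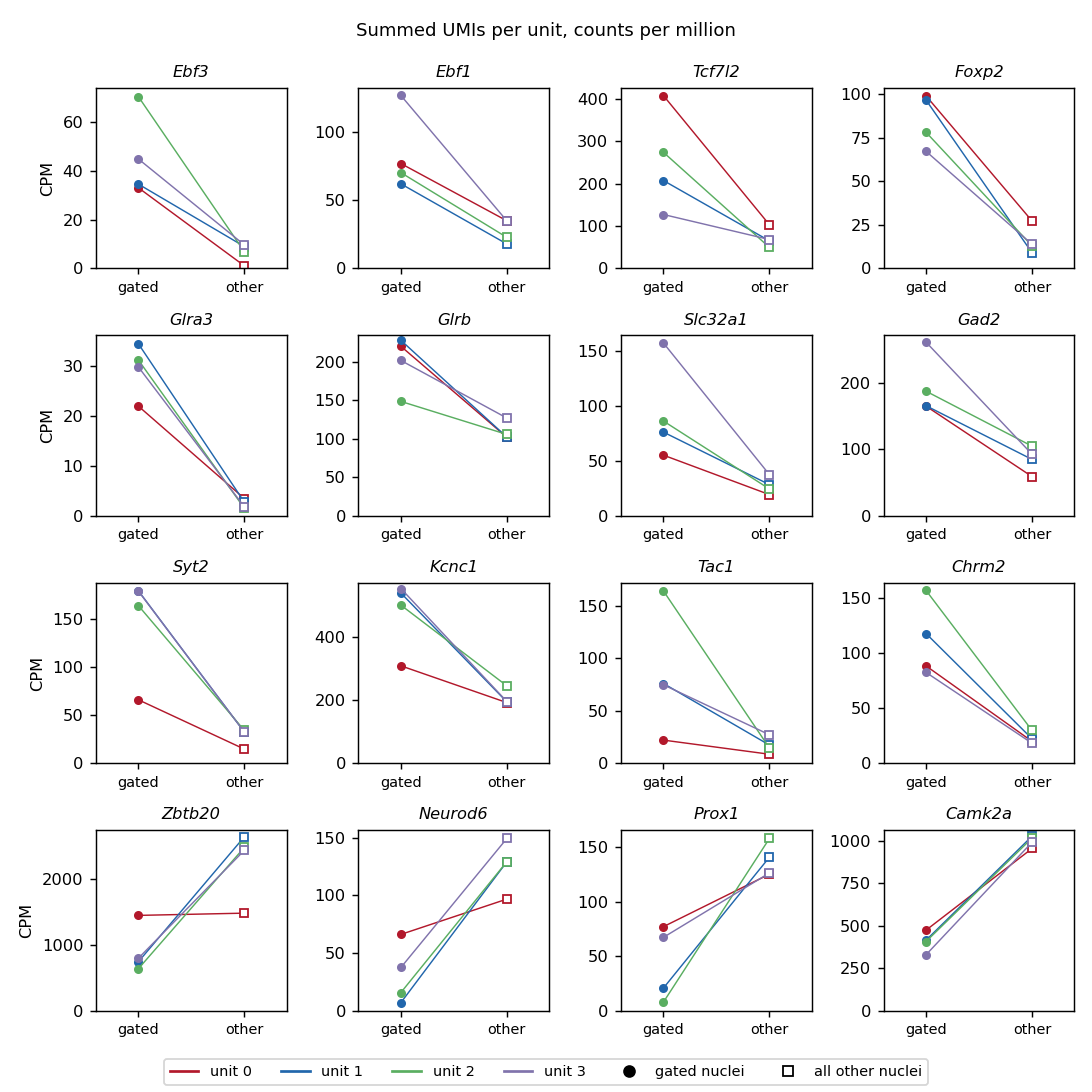
CPM of 16 genes in gated nuclei (filled circles, left) and in all other nuclei (open squares, right), with a line per unit and axes starting at 0. Ebf3 lies at 33.0 to 70.4 CPM in gated nuclei and at 1.07 to 9.63 CPM in the others, and the Zbtb20 line of unit 0 is nearly flat.

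Genes for GABA synthesis and loading rose and the hippocampal glutamate transporter fell, relative to all other nuclei. Slc32a1, which loads GABA and glycine into vesicles (chr2:158610767-158615748), had 55.1, 76.0, 86.0 and 157 CPM in gated nuclei, against 19.2, 28.3, 24.3 and 37.3 CPM in all others. No values overlapped, and the log2 fold change was 1.74 ± 0.31 (edgeR adjusted p = 0.000119). Gad2 had 165, 166, 188 and 262 CPM in gated nuclei, against 59.0, 84.9, 105 and 92.7 CPM in all others, also apart, at 1.17 ± 0.21 (edgeR adjusted p = 0.000115). Gad1 rose by 0.92 ± 0.23 (edgeR adjusted p = 0.00753), a call lost without unit 2 (0.74, edgeR adjusted p = 0.157), without unit 3 (0.95, edgeR adjusted p = 0.0668) and in DESeq2 (0.93, adjusted p = 0.0512). In nuclei with at least 3 gate genes Slc32a1 (1.54, edgeR adjusted p = 0.114) and Gad1 (0.57, 0.619) were not called. In gated nuclei outside cluster 3, against other nuclei outside it, none of these 3 was called, with Slc32a1 at 1.24, Gad2 at 0.20 and Gad1 at 0.06. Slc17a7, described next, was at -1.04 there (edgeR adjusted p = 0.0604). Abat, Aldh5a1, Slc6a9 and Slc6a11, genes of GABA breakdown and of GABA and glycine uptake, did not pass. Slc6a5, the transporter that defines glycine neurons, had 0 UMIs in gated nuclei and 1 in all others.

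On the glutamate side, 3 of 7 genes tested fell and none rose. Slc17a6, present in 54.8% of gated nuclei, is a gate gene and was not among the 7. Slc17a7 had 165, 48.4, 110 and 44.8 CPM in gated nuclei, against 262, 265, 279 and 225 CPM in all others, a fall by 1.62 ± 0.23 on the log2 scale (edgeR adjusted p = 4.68e-06). Slc1a2, the glial transporter, had a log2 fold change of -1.27 and also fell. Of the genes that mark acetylcholine and monoamine neurons, Chat, Th, Tph2, Slc6a3 and Ddc had 0 UMIs in gated nuclei. The one such gene tested, Ache, which breaks down acetylcholine and is also made by cholinoceptive neurons, had 143, 228, 180 and 142 CPM in gated nuclei, against 48.9, 64.2, 50.2 and 52.4 CPM in all others, and rose by 1.66 ± 0.22 (edgeR adjusted p = 1.35e-06).

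Receptor genes moved in both directions. Glra3, another glycine receptor subunit and not part of the gate (chr8:55940460-56130070), had 22.02, 34.5, 31.3 and 29.9 CPM in gated nuclei, against 3.47, 2.76, 1.52 and 1.81 CPM in all others. This rests on 15 UMIs in gated nuclei and 22 in all others, yet the values were apart in every unit, at 3.51 ± 0.62 (edgeR adjusted p = 0.000119). Glrb, the beta subunit that anchors glycine receptors at synapses, rose by 0.84 ± 0.20 (edgeR adjusted p = 0.00405), a call lost without unit 1 (0.73, edgeR adjusted p = 0.0844). Among 14 GABA receptor genes, Gabra3 rose by 1.36 on the log2 scale (the call was lost without unit 3, at 1.13 with an edgeR adjusted p of 0.117), and Gabrd, the extrasynaptic delta subunit of granule cells, fell by 1.22, a call lost when any 1 unit was left out.

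Among 30 glutamate receptor genes, 2 rose and 4 fell. Gria4, an AMPA subunit of fast synapses, had 286, 484, 368 and 441 CPM in gated nuclei, against 262, 150, 150 and 149 CPM in all others, a rise of 1.20 ± 0.18 (edgeR adjusted p = 1.22e-05) that was small in unit 0. Gria1, the AMPA subunit of hippocampal plasticity, had 782, 546, 626 and 605 CPM in gated nuclei, against 855, 1350.0, 1472 and 1375 CPM in all others, and fell by 1.00 ± 0.14 (edgeR adjusted p = 3.35e-06). Grin2b fell by 0.92 on the log2 scale. Chrm2, the muscarinic M2 receptor, had 88.1, 117, 156 and 82.2 CPM in gated nuclei, against 19.8, 22.1, 29.6 and 18.1 CPM in all others, and rose by 2.28 ± 0.30 (edgeR adjusted p = 9.32e-07). Chrm1, the M1 receptor of forebrain pyramidal cells, fell by 2.17, a call lost without unit 3 (-1.75, edgeR adjusted p = 0.0653). Htr2c, a serotonin receptor also abundant in choroid plexus, rose by 2.00 ± 0.34, with 165, 27.6, 86.0 and 112 CPM in gated nuclei against 40.9, 20.02, 16.7 and 16.3 CPM in all others, and its ranges overlapped.

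Peptide genes moved singly. Tac1, the precursor of substance P, had 22.02, 76.0, 164 and 74.7 CPM in gated nuclei, against 8.55, 17.3, 14.4 and 27.1 CPM in all others. Unit 0 of the gated nuclei lay within the range of the others, and the log2 fold change was 2.26 ± 0.38 (edgeR adjusted p = 4.98e-05). Cbln2, a secreted synapse organiser, rose by 2.07 ± 0.38, which without unit 1 was 1.27 with an edgeR adjusted p of 0.108. Npy fell by 2.36 on the log2 scale. In nuclei with at least 3 gate genes, the log2 fold changes of Tac1 (0.32, edgeR adjusted p = 0.938) and Chrm2 (0.97, edgeR adjusted p = 0.604) were no longer called.

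Of the genes of fast, regular firing and fast release, 9 of 18 tested rose and none fell, with a median log2 fold change of 0.65. This rise was not seen in 2 comparisons described below. Against nuclei with Prkcd or Lef1, 0 of 13 tested were called (median -0.12), and in Gad nuclei against other Gad nuclei 0 of 11 (median 0.18). Those comparisons rest on 2 units each and call few genes, with 0.385% and 0.0% of all genes higher. Syt2, the calcium sensor of fast synapses (chr1:134646677-134762593), had 66.1, 180, 164 and 179 CPM in gated nuclei, against 14.7, 32.5, 34.2 and 32.5 CPM in all others. All gated values were higher, unit 0 lowest in both sets, at 2.35 ± 0.26 (edgeR adjusted p = 4.66e-08). Kcnc1, a potassium channel for rapid repolarisation, had 308, 539, 500 and 553 CPM in gated nuclei, against 192, 194, 245 and 195 CPM in all others, at 1.19 ± 0.16 (edgeR adjusted p = 8.08e-07). Scn4b, Kcnab3, Nefh, Vamp1, Nefm, Scn1a and Thy1 made up the rest, with log2 fold changes of 2.02 down to 0.77. Among 39 other channel genes 3 rose, led by the calcium channel subunit Cacna2d2 (1.89 ± 0.23, edgeR adjusted p = 1.54e-07), and 6 fell.

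Genes of hippocampal principal cells were low. Of 16 dentate granule genes tested 7 fell and of 18 pyramidal genes 7 fell, with none rising and medians of -1.02 and -0.83. Camk2a, the kinase of excitatory forebrain synapses, had 474, 414.5, 407 and 329 CPM in gated nuclei, against 954.5, 1027, 1016 and 991 CPM in all others, a fall by 1.34 ± 0.14 (edgeR adjusted p = 4.89e-09). Dsp, a desmosome gene of granule cells, had 0 UMIs in gated nuclei and was at least 4.73-fold lower than in the others, from a floor of 3 UMIs over the group. Forebrain interneuron genes were mixed, with Calb2 the one riser and Prox1 the one faller of 17 tested and a median of 0.19. Of 66 axon guidance and adhesion genes 9 rose and 8 fell, among them Epha7, which fell by 1.35, and Slit1, by 1.61 on the log2 scale.

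Vessel and glial markers were lower in gated nuclei but present. All 9 endothelial and mural genes tested fell, with a median of -2.87, and these genes took 0.0055% to 0.0573% of UMIs in gated nuclei and 0.0841% to 0.237% in all others. Cldn5 fell by 4.22 and Flt1 by 4.06 on the log2 scale. The red cell and vessel genes Hba-a2, Ctla2a and Mgp had 0 UMIs in gated nuclei and were at least 14.4-fold, 5.95-fold and 5.36-fold lower, although Hba-a2 is nearly identical to Hba-a1 and counting could split them. Of 12 astrocyte genes 8 fell, and of 14 oligodendrocyte genes 6 fell. Astrocyte genes took 0.0691% to 0.226% of UMIs in gated nuclei and 0.213% to 0.313% in the others, and oligodendrocyte genes 0.102% to 0.252% and 0.252% to 0.323%. In the gated nuclei of cluster 3 the oligodendrocyte share was 0.0435% to 0.0541%. Microglia genes took 0.0082% to 0.0231% of UMIs in gated nuclei and 0.0094% to 0.0163% in the others, and of 2 tested neither passed. Ependymal and choroid plexus genes, whose shares are given above, were higher in gated nuclei of every unit, and 1 of 2 tested rose. The neuronal noncoding RNAs Meg3 and Snhg11 rose by 0.75 and 0.73, and Malat1 fell by 0.48 on the log2 scale.

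**Figure D3:**
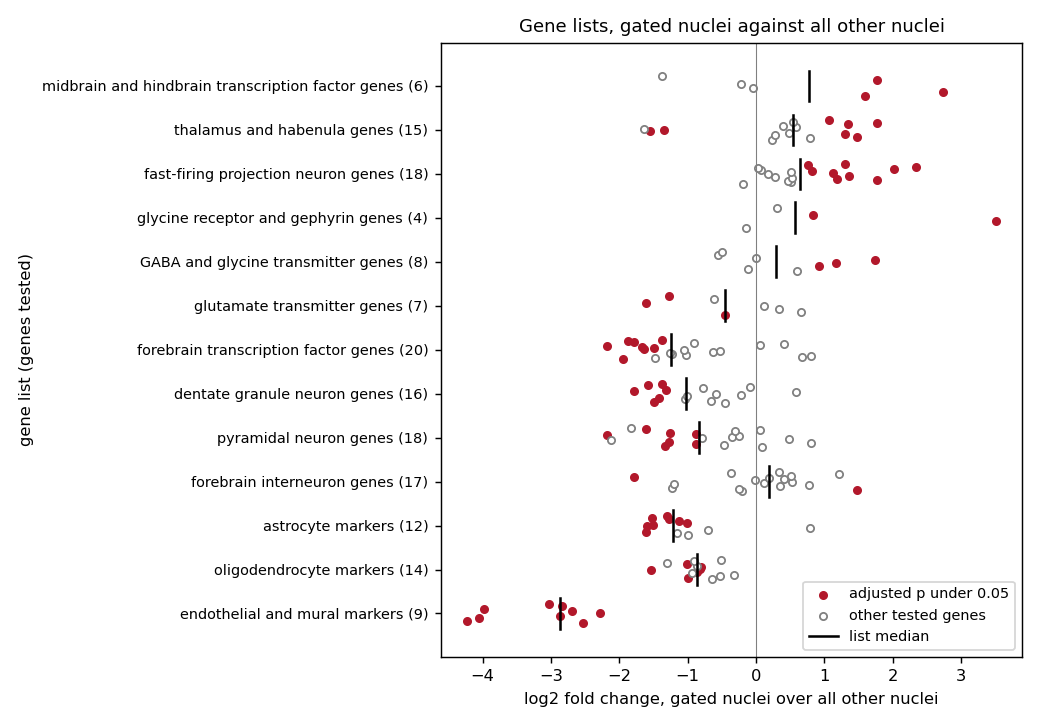
Log2 fold change of each tested gene of 13 lists, gated nuclei over all other nuclei, with filled circles for an adjusted p under 0.05 and a bar at each list's median. Fast-firing genes lie to the right (median 0.65) and forebrain factors (-1.25) and endothelial genes (-2.87) to the left.

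A second comparison used other neurons only, the 2568 nuclei in clusters named as dentate granule, pyramidal, interneuron or thalamus and habenula-like. The ungated nuclei of cluster 3 are not in this set. Unnamed clusters 1 (717 nuclei, led by Vip, Lamp5 and Sst) and 13 (142 nuclei, led by Penk and Neurod6) are also left out. The interneuron-like cluster has 130 nuclei, 2 of them gated, so nuclei with GABA genes may be few in this set. How far this raises GABA genes in the comparison was not tested. Of 8493 genes tested, 414 (4.87%) were higher in gated nuclei and 496 (5.84%) lower, with a median log2 fold change of 0.00. The Ebf factors led. Ebf1 had 77.1, 62.2, 70.4 and 127 CPM in gated nuclei, against 6.68, 1.18, 3.58 and 4.21 CPM in the other neurons, a log2 fold change of 4.26 ± 0.43 (edgeR adjusted p = 7.1e-08). Ebf3 followed at 3.92 ± 0.54, Susd2 at 3.55 ± 0.45, Tac1 at 3.37 ± 0.44, Glra3 at 3.34 ± 0.57 and Syt2 at 3.21 ± 0.32.

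Of 7 GABA and glycine transmitter genes tested 6 rose, among them Slc32a1 (2.49), Slc6a11 (1.92), Gad2 (1.31), Abat (1.05) and Gad1 (0.89). Slc6a11 and Abat are also made by astrocytes, which this set of other neurons leaves out. Of 18 forebrain factors 9 fell. Fast-firing genes again had 9 risers and no faller, of 17 tested. Glial genes went the other way from the first comparison: 7 of 10 oligodendrocyte genes rose, among them Mag (1.94), and 3 of 6 astrocyte genes rose, led by Gja1 (2.88). The set of other neurons holds neuronal clusters alone, while 21 gated nuclei lay in an oligodendrocyte-like and 13 in astrocyte-like clusters. Col9a3 rose by 3.12 ± 0.46, with 385, 20.7, 7.82 and 22.4 CPM in gated nuclei against 25.8, 4.73, 5.97 and 4.21 CPM in the other neurons. Unit 0 gave 35 of its 42 UMIs in gated nuclei, and without that unit it fell under the count filter.

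The third comparison set gated nuclei against those that met the same count gate but held Prkcd or Lef1, genes of thalamic relay neurons. Units 0 and 3 alone had at least 10 nuclei on both sides, 101 gated and 87 with Prkcd or Lef1, and 72 of all 105 such nuclei lay in the thalamus and habenula-like cluster 11. Gated nuclei had more GABA genes and fewer thalamic ones. Holding Prkcd or Lef1 put a nucleus on the other side, so the lower thalamic genes follow in part from the gate. The higher GABA genes may follow from that choice too, which was not tested. The Prkcd or Lef1 nuclei were also deeper, with medians of 3743.5 and 3483 UMIs in units 0 and 3, against 1973 and 1766. Gad2 had 165 and 262 CPM in gated nuclei of units 0 and 3, against 20.2 and 26.5 CPM in the Prkcd or Lef1 nuclei, a log2 fold change of 3.05 ± 0.59 (edgeR adjusted p = 6.4e-05). Plekhg1 had 55.1 and 0 CPM in gated nuclei, against 372 and 292 CPM in the Prkcd or Lef1 nuclei, at -3.66 ± 0.59 (edgeR adjusted p = 2.15e-07). Ramp3, Rgs16, Shox2, Rora and Ntng1 were also lower, and 9 of 12 thalamus and habenula genes tested fell. Of the midbrain and hindbrain factors 2 were tested here, with 0 higher, 1 lower and a median log2 fold change of -1.98.

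Of 2856 genes, 11 (0.385%) were higher and 31 (1.09%) lower. Zic1 was 44.0 and 7.47 CPM in gated nuclei, against 262 and 186 CPM in the Prkcd or Lef1 nuclei. With 2 units this test has little to go on: without the block 1 gene was higher and 2 lower, and in DESeq2 0 were higher and 1 lower, while 266 genes had an unadjusted p under 0.05 in edgeR. Enpp2 and Ttr, genes of choroid plexus epithelium, were among the higher, and Enpp2 had 672 and 97.2 CPM in gated nuclei against 184 and 53.0 CPM in the Prkcd or Lef1 nuclei.

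The gated nuclei were split by transmitter. Of the 221, 47 held a UMI of Gad1 or Gad2 and none of Slc17a6, 107 held Slc17a6 and neither Gad gene, 14 held both and 53 held none. Gad-only nuclei were 14.3%, 22.8%, 22.2% and 22.7% of gated nuclei in units 0 to 3, a mean of 20.5% ± 4.16 (SD, n = 4). Slc17a6-only nuclei were 62.9%, 42.1%, 50.8% and 43.9%, a mean of 49.9% ± 9.40. Unit 0 was lowest in the Gad class and highest in the Slc17a6 class. Among all other nuclei the means were 10.9% Gad-only and 4.396% Slc17a6-only, and in the oligodendrocyte-like cluster of 300 nuclei 3.28% and 0.687%, at the median of 633 UMIs against 1787 in gated nuclei.

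Slc17a6 is itself a gate gene, so its share is raised by the choice. In the 143 nuclei that met the gate on the other 6 genes, 31.9% ± 4.75 were Gad-only, 28.9% ± 8.50 Slc17a6-only, 2.31% held both and 36.9% none (SD, n = 4). On that count the means differed by less than the spread between units. Within units, Gad-only nuclei were the larger class in units 1 to 3 and Slc17a6-only nuclei in unit 0. This gate still holds Gata3, described above as a gene of GABA neurons. The Gad class also counts either of Gad1 and Gad2, against Slc17a6 alone, so the classes are not scored alike. In all of cluster 3, which was built without Slc17a6 but with Gad1 and Gad2, 33.9% ± 1.90 were Gad-only and 23.0% ± 3.94 Slc17a6-only. Its ungated nuclei were 37.2% Gad-only and 11.5% Slc17a6-only.

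Few nuclei held both. They were 5.89% ± 2.59 of gated nuclei, and 0.397% when each nucleus was thinned to 500 UMIs. At that depth 12.8% were Gad-only and 21.2% Slc17a6-only, against 6.02% and 1.99% in all other nuclei. Nuclei with both had a median of 2440.5 UMIs and 35.7% were doublet calls, against 1821 UMIs and 17.0% in Gad-only and 1926 UMIs and 19.6% in Slc17a6-only nuclei. Nuclei with none had a median of 1286 UMIs, and at this depth a missing UMI does not show a missing gene.

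**Figure D4:**
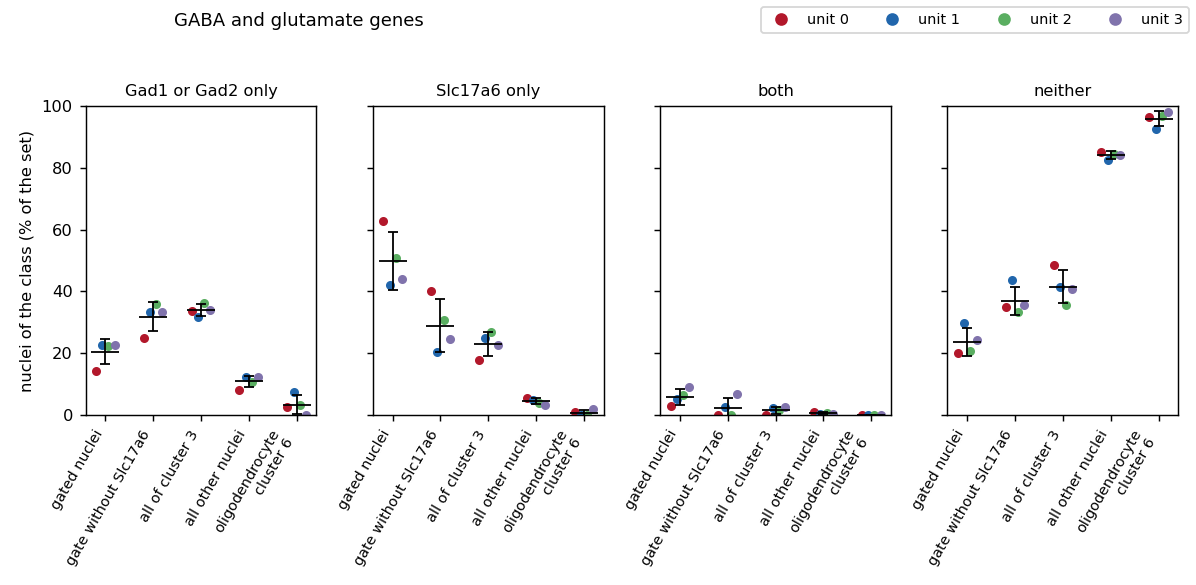
Share of nuclei holding Gad1 or Gad2 only, Slc17a6 only, both or neither, in gated nuclei, in nuclei gated without Slc17a6, in all of cluster 3, in all other nuclei and in an oligodendrocyte-like cluster. Points are units, and bars are the mean and SD of 4 units. Slc17a6-only nuclei are 49.9% of gated nuclei and 28.9% where Slc17a6 was left out of the gate.

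The GABA vesicle transporter followed the Gad split. In units 1 to 3, which had at least 10 nuclei of each class, Slc32a1 had 318, 355 and 378 CPM in Gad-only gated nuclei, against 0 CPM in Slc17a6-only gated nuclei of each unit. It was at least 23.8-fold higher from 33 UMIs against a floor of 3 over the group (edgeR adjusted p = 0.00632). The call was lost without unit 1 (edgeR adjusted p = 0.865). Nrxn3, a presynaptic adhesion gene, had 600, 645 and 407 CPM in Gad-only nuclei, against 240, 106 and 178 CPM in Slc17a6-only nuclei, at 1.66 ± 0.37 (edgeR adjusted p = 0.0361). Its call was lost in DESeq2 (adjusted p = 0.998), without unit 1 (0.865), without unit 2 (0.571) and without doublet calls (0.174). Of 796 genes tested these 2 (0.251%) were higher and 0 (0.0%) lower in edgeR, 47 had an unadjusted p under 0.05, and DESeq2 called 1.

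Some transcription factors too sparse for the test were counted in 1 class and not the other, and these counts have no test. Slc17a6 counts toward the gate, so Gad-only nuclei met it on the other gate genes alone, while Slc17a6-only nuclei needed fewer of those. What part of these counts follows from that choice was not tested. In 47 Gad-only nuclei Lhx1, a LIM homeobox factor of midbrain and hindbrain GABA neurons, had 11 UMIs in 8 nuclei, against 0 in 107 Slc17a6-only nuclei, at least 8.98-fold higher in CPM. Tal1 and Sox14, factors of midbrain GABA neurons, had 4 UMIs each in Gad-only nuclei and 0 in Slc17a6-only ones. Pax7, Lhx5 and Tfap2a had 3 each and 0. Over all gated nuclei Lhx1, Tal1, Sox14 and Pax7 had 14, 8, 7 and 5 UMIs, the rest lying in nuclei with both or neither transmitter. Ebf1 had 1 UMI in Gad-only nuclei and 30 UMIs in 25 of the Slc17a6-only nuclei. Ebf3 had 1 UMI in Gad-only nuclei and 16 UMIs in 13 of the Slc17a6-only nuclei.

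Barhl1 (0 UMIs in Gad-only and 5 in Slc17a6-only nuclei), Barhl2 (0 and 4), Pou4f1 (0 and 5), Tfap2d (0 and 6), Zic1 (0 and 6) and Ebf2 (0 and 4) were counted in Slc17a6-only and not in Gad-only nuclei. Further UMIs of Pou4f1, Tfap2d, Barhl1 and Zic1, whose totals over all gated nuclei were 9, 10, 6 and 7, lay in nuclei with both or neither transmitter. Irx2 (4 and 7), En2 (2 and 2) and Nr4a2 (2 and 4) were seen in both. The Slc17a6-only class is larger in nuclei and UMIs, so equal rates would give it more counts. Peptide and secreted protein genes went both ways in CPM, again with no test. Cbln2 had 9.42 CPM in Gad-only and 123.1 CPM in Slc17a6-only nuclei, Tac1 37.7 and 100.05, Penk 37.7 and 80.8, and Cck 56.5 and 223. Nxph1 had 65.95 CPM in Gad-only and 7.70 CPM in Slc17a6-only nuclei, Npy 28.3 and 3.85, and Pnoc 3 UMIs and 0.

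**Figure D5:**
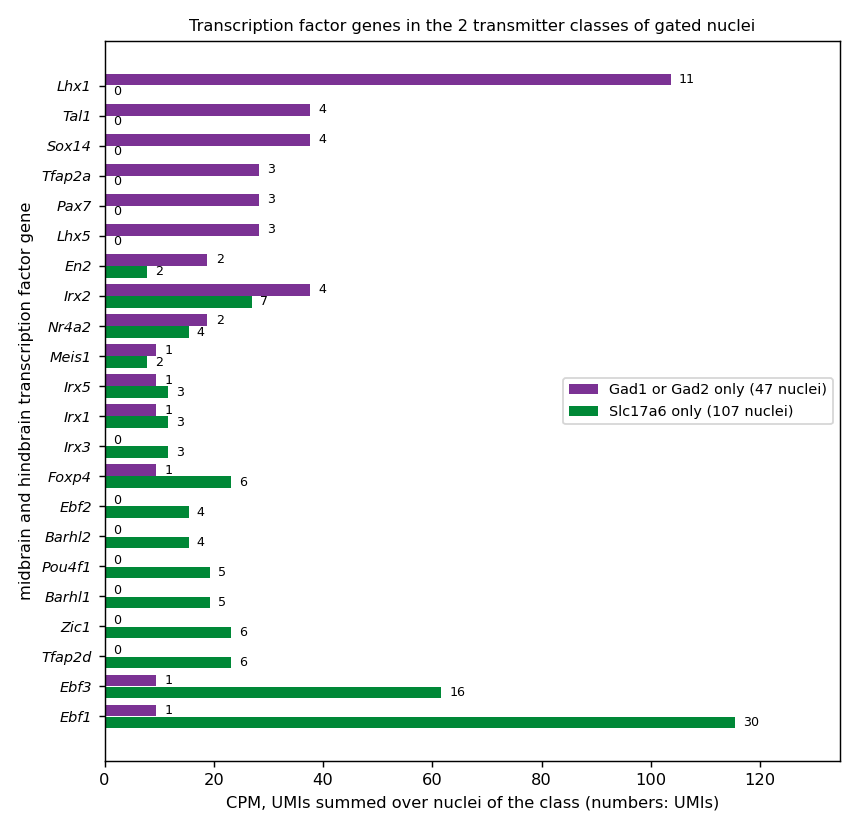
CPM of transcription factor genes in Gad-only gated nuclei (upper bar, 47 nuclei) and Slc17a6-only gated nuclei (lower bar, 107 nuclei), from UMIs summed over each class, with UMIs printed beside the bars. Lhx1 has 11 UMIs and 0, and Ebf1 has 1 and 30. Tcf7l2, with 16 and 77 UMIs, is not drawn.

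Gated Gad nuclei also differed from the other Gad nuclei of the hippocampus. Those with at least 2 UMIs of Gad1 and Gad2, 26 gated and 109 others in units 2 and 3, were compared. The others came from any cluster, and ungated nuclei of cluster 3, of which 37.2% were Gad-only, were not left out. How many of the others lay in cluster 3 was not counted. Several genes of forebrain interneurons were lower in the gated ones. Sst, the somatostatin gene, had 0 and 34.4 CPM in gated Gad nuclei of units 2 and 3, against 675 and 463 CPM in other Gad nuclei, and fell by 4.93 ± 0.77 on the log2 scale (edgeR adjusted p = 2.63e-07). This level rests on 1 UMI, and the Gad-only gated nuclei of units 1 to 3, chosen from 1 Gad UMI up and without Slc17a6, had 212, 0 and 145.5 CPM of Sst. Dlx6os1, a noncoding RNA of the interneuron lineage antisense to Dlx6, had 0 UMIs in gated Gad nuclei and 59 in the others, at least 4.41-fold lower. Erbb4, the neuregulin receptor of interneurons, had 0 and 42 UMIs, at least 3.14-fold lower. No source used here says whether the counting used strand.

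Npy had 73.9 and 34.4 CPM in gated Gad nuclei, against 588 and 532 CPM in other Gad nuclei (log2 -3.42 ± 0.61, edgeR adjusted p = 1.36e-05). Maf, Col19a1 and Tcf4 were lower too. Of 1320 genes tested 11 (0.833%) were lower and 0 (0.0%) higher in edgeR, with 97 at an unadjusted p under 0.05. Adarb2, another forebrain interneuron gene, had 222 and 68.8 CPM in gated Gad nuclei, against 96.5 and 232 CPM in other Gad nuclei, and did not pass. The other Gad nuclei hold most of the UMIs, so genes that are high there pass the count filter more easily, and no count over the list is given. With 2 units these calls are fragile: DESeq2 called 0 genes, and without doublet calls 3 were lower.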

How the data were processed

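The authors deposited 1 table of UMI counts per gene and nucleus, 23589 genes by 13313 columns, with whole numbers as its values. STAR 2.4.0a24, Seurat and mm10 are named in the labels, per the submitters' processing notes. The collapsing of UMIs and the treatment of intronic or antisense reads are not given in the sources used here. A set of 1689 columns named for a library that matches no sample label was not used.

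The gate was applied to the raw counts. Nuclei were clustered without the gate genes in scanpy 1.11.5 and leidenalg 0.10.2 (10000 per nucleus, log scale, 2000 variable genes, 40 components, 20 neighbours, resolution 2.0). A cluster was named only from at least 3 marker genes of a class. Doublet scores compared each library with its own simulated pairs over 30 neighbours, and a nucleus above the median score of those pairs was called.

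UMIs were summed per unit and set, with at least 10 nuclei per sum, and tested in edgeR 4.0.16 under R 4.3.3 (TMM, filterByExpr, quasi-likelihood test, Benjamini-Hochberg over all genes tested), with the unit as a block because both sums of a unit come from the same libraries. The test was also run on counts simulated from these sums, and the outcome is not given here. CPM are summed UMIs per 1000000 UMIs of the set, with no gene length. Depth was 1443244 to 1972542 UMIs per hippocampal library, which limits rare genes to a few UMIs. Exact binomial intervals at 95% hold counting error and nothing else, and the floor for a count of 0 was 3.

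The members, the gene lists and the tests were chosen with earlier results of these data known. A named gene had an adjusted p under 0.05, a mean of at least 20 CPM in the higher set and 1 direction in every unit. The largest folds were taken, 15 higher and 8 lower in the first comparison, 10 and 6 in the second and up to 8 each in the others. To these came up to 4 genes a list, by smallest p, and all transmitter genes. Other genes of a list that passed are named as part of its count, and some genes that met the rule are not reported here. The genes too sparse for a test in the transmitter split were chosen after their values were seen. Of the list genes, 23 were not in the table under the symbol used. Gene positions come from GENCODE vM21 on GRCm38, by symbol. Alternatives covered the block, DESeq2 1.42.0, the count filter, each unit left out, libraries 0a and 0b apart, doublet calls, stricter and looser gates, UMI depth and clusters.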

Additional observations from a re-analysis of the deposited data

Results flagged for a closer look

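In groups of 4 units, 31 of 216 sets of values had 1 unit whose gap to the nearest of the other 3 was, as a share of the range, above Dixon's 95% critical value. Chance flags about 1 in 20 such groups, and unit 0 was the unit apart in most of them.

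For gated nuclei, unit 0 was low in their share (1.47% against 5.40% to 5.93% in units 1 to 3) and in the Gad-only share (14.3% against 22.2% to 22.8%). It was also low in Syt2 (66.1 CPM against 164 to 180), Tmem91 (143 against 274 to 292), Scn1a (551 against 774 to 792), Meg3 (34170 against 59190 to 61050) and Snhg11 (18290 against 25890 to 27170).

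Unit 0 of the gated nuclei was high in choroid plexus markers (0.441% of UMIs against 0.0187% to 0.0193%), in endothelial markers (0.0573% against 0.0055% to 0.0104%) and in Col9a3 (385 CPM against 7.82 to 22.4). It was high too in Slc1a2 (914 CPM against 276 to 366), Ptpn3 (77.1 against 13.8 to 22.4) and Rgs5 (99.1 against 7.47 to 13.8). Tns1, Hbb-bt, Vipr1 and Smad3 each had 11.0 CPM in unit 0, from 1 UMI, and 0 in units 1 to 3. Runx2 had 6.91 CPM in unit 1 and Myo5b 7.82 CPM in unit 2, with 0 in the other units.

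Among all other nuclei, unit 0 was low in Syt2 (14.7 CPM), Bcl11b (86.0), Epha7 (222) and Meg3 (26970), and high in Mef2c (371), Gria4 (262) and Htr2c (40.9). Single units stood apart in Glrb (127 CPM in unit 3), Npy (105 in unit 1) and Kcnc1 (245 in unit 2). Col9a3 had 25.8 CPM in unit 0 of the other neuron-like nuclei, against 4.21 to 5.97 in units 1 to 3. Nuclei that met the count gate with Prkcd or Lef1 were 3.12% of unit 0 and 0.848% to 1.11% of units 1 to 3.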

How the results depend on the processing

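For gated nuclei against all others, where the main counts were 287 higher and 439 lower, leaving out a unit gave 125 to 403 higher and 181 to 500 lower genes. DESeq2 gave 150 and 174, and nuclei with at least 3 gate genes 79 and 260. Gated nuclei outside cluster 3, against other nuclei outside it, gave 23 and 85. The gate without Slc17a6 gave 158 higher, and the gated nuclei of cluster 3 gave 701 lower. Against other neurons, with 414 and 496, leaving out a unit gave 196 to 582 and 250 to 689, and DESeq2 223 and 237. The same 2 choices of nuclei gave 177 and 285, and 129 and 158, the gate without Slc17a6 gave 268 higher, and no count filter gave 813 lower.

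Without the replicate block, the first comparison had 266 higher and 366 lower and the second 393 and 475. Against Prkcd or Lef1 nuclei, with 11 and 31, the fit with no replicate block gave 1 and 2, DESeq2 0 and 1, no count filter 2 and 10, and cluster 3 members 2 and 20. Libraries 0a and 0b apart gave 5 higher. For Gad-only against Slc17a6-only nuclei, with 2 and 0, DESeq2 and removal of doublet calls gave 1 and 0, no count filter 1 and 1, and leaving out a unit 0 to 2 higher. For Gad nuclei, with 0 and 11, the fit with no replicate block gave 5 lower, DESeq2 0, no count filter 22, no doublet calls 3, and sums of at least 5 nuclei 6. The cause of these shifts was not tested.

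The share of gated nuclei was 1.30% with at least 3 gate genes and 1.42% after thinning. Gad-only nuclei were 31.9% with the gate without Slc17a6, 12.8% after thinning and 26.6% in cluster 3, and Slc17a6-only nuclei 28.9% and 21.2% under the first 2 of these and 66.5% with at least 3 gate genes. The leading cluster held 49.8% at the finer clustering.

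Of 1278 values for named genes in the first comparison, 1125 kept direction and call, 138 lost the call, 4 gained one and 11 changed sign. Of the genes behind those 11, Mag alone was called with all gated nuclei (-0.86). Aldh5a1 was 0.21 without unit 1, 0.0058 without doublet calls and 0.0754 with at least 3 gate genes. Grin1 was -0.0279 to 0.353 with a unit left out, lowest without unit 2, -0.0588 with the gate without Slc17a6, -0.0111 within the UMI range and -0.40 outside cluster 3. Slc6a11 was 0.37 within the UMI range, and outside cluster 3 it was 0.0877, Mag 0.18 and Abat -0.0171. In the second comparison 177 of 186 kept direction and call and 9 lost the call.

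The choices about cluster 3 members and sums of 5 nuclei were added after seeing the data. With units 0 and 3, or 2 and 3, alone, leaving out a unit could not be fitted, and stricter gates left too few nuclei there.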
